A study of Lotus japonicus with 10 samples.

Results

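The expression landscape of unelicited mature leaves was described in the legume Lotus japonicus, line MG20, from the 4 samples titled as 0 h leaves, of 10 samples in the series. The plants came from a glasshouse, the leaves carried no added agent per their source name, and Cy3-labelled cRNA of each sample was read on its own one-colour Agilent array. The treatment text in the labels, which describes detached leaves shaken in glutathione, is the same for every sample, so the labels do not say how the 0 h leaves were handled before freezing. The design text calls the 4 samples biological replicates but does not give their plants, so p-values speak only of the scatter among these 4 samples, which may be technical. Replicates 1 and 2 were on slide 1, scanned once, and replicates 3 and 4 were on slide 2, which also held the 6 elicited arrays and was scanned separately. Slide, scan and replicate pair therefore cannot be told apart, and values of replicates 1 and 2 are given beside those of replicates 3 and 4 throughout.

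Legume leaves make phenolic compounds from phenylalanine. Phenylalanine ammonia-lyase (PAL) and cinnamate 4-hydroxylase (C4H) open the pathway, chalcone synthase (CHS) and chalcone isomerase (CHI) commit carbon to flavonoids, and isoflavone synthase (CYP93C) with later reductases leads to isoflavonoid phytoalexins. Lotus japonicus leaves also store cyanogenic glucosides, which release hydrogen cyanide when a beta-glucosidase splits them in damaged tissue. The first enzymes of their synthesis are the cytochrome P450s CYP79D and CYP736A2.

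The array is a focused design of 5716 probes for 3148 names, chiefly transcription factors, P450s, glycosyltransferases, beta-glucosidases and phenolic enzymes. Names ending in the same locus were joined, which gave 3082 targets in 140 families. Signals are log2 values of the processed intensity, set against each array's own 75th percentile, so a probe at 0 is as bright as the 75th percentile. The level of a target is that of its brightest probe, averaged over the arrays that measured it. A probe's brightness reflects how well it binds as well as how much RNA is there, so the order below is an order of signals. Where both probes of a name were measurable (1069 names), their mean signals differed by a median of 0.80 (90th percentile 2.34), with a correlation of 0.766 across names.

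On replicates 1 and 2, 3805 and 3418 probes were well above background (66.6% and 59.8%), against 3168 and 3236 (55.4% and 56.6%) on replicates 3 and 4. All 4 arrays measured 2867 probes (50.2%) and 1767 targets (57.3%), and 705 targets were measured on no array. Over the 2867 probes the arrays of a slide correlated at 0.979 and 0.974, against 0.781 to 0.814 between slides, as a description across probes. Signal was less concentrated on slide 1. The 10 brightest probes carried 5.66% and 5.72% of the summed signal on replicates 1 and 2, against 14.8% and 13.9% on replicates 3 and 4. E1A spike-in controls lay 1.98 and 2.5 above the 75th percentile on replicates 1 and 2, against 3.91 and 3.58 on replicates 3 and 4. The array's names allow only a thin check of tissue. The lists for mesophyll, trichome, root, nodule and meristem met 0 names. The guard cell list met 3 MYB60 names, of which 0 were measured on all 4 arrays, and these follow the design's own numbering. The vascular list met only 2 CYP85A names, of which 1 was measured on all 4 arrays. These names also belong to the brassinosteroid list given below, so they are no check of vascular cells. Of 7 YABBY names, regulators of leaf polarity, 5 were measured on all 4 arrays. Of 98 MADS names, many of them regulators of flowering and floral organs, 17 were measured on all 4 arrays and 60 on none, and all 4 LEAFY names were on none. In whole leaves, fewer cells of a type and less RNA per cell cannot be told apart.

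The 104 families with at least 5 targets were ranked by median signal, which is plotted against the share measured. Chalcone synthase had the highest median signal, 3.26 over 28 targets, of which 26 were measured on all 4 arrays. It was followed by the NAC names (2.87, 9 of 9 targets), chalcone isomerase (2.84, 6 of 6) and the UGT85 glycosyltransferases (2.70, 11 of 11). Next came the names read as cyanoalanine synthase (2.26, 6 of 7), the P450 family CYP706 (2.24, 6 of 6) and PAL (2.14, 12 of 14). The median over all targets was -2.63, and 15 of the 104 families had a median above 0. The order of the leading families depended on the slide and on how the probes of a target were combined. With the same probes, NAC was first on replicates 1 and 2 (2.71, PAL next at 2.54) and CHS on replicates 3 and 4 (3.85), while choosing the brightest probe again on replicates 1 and 2 alone put PAL first (2.90). Of the 10 leading families, 9 were among the 10 leading on replicates 1 and 2 alone and all 10 on replicates 3 and 4 alone. With the probes of a target averaged over the 4 arrays, NAC was at rank 1 (2.55) and CHS at rank 5 (1.7). CHI was then at rank 10 (0.78), and PKR fell from rank 10 (1.95) to rank 13 (-0.29).

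**Figure D1:**
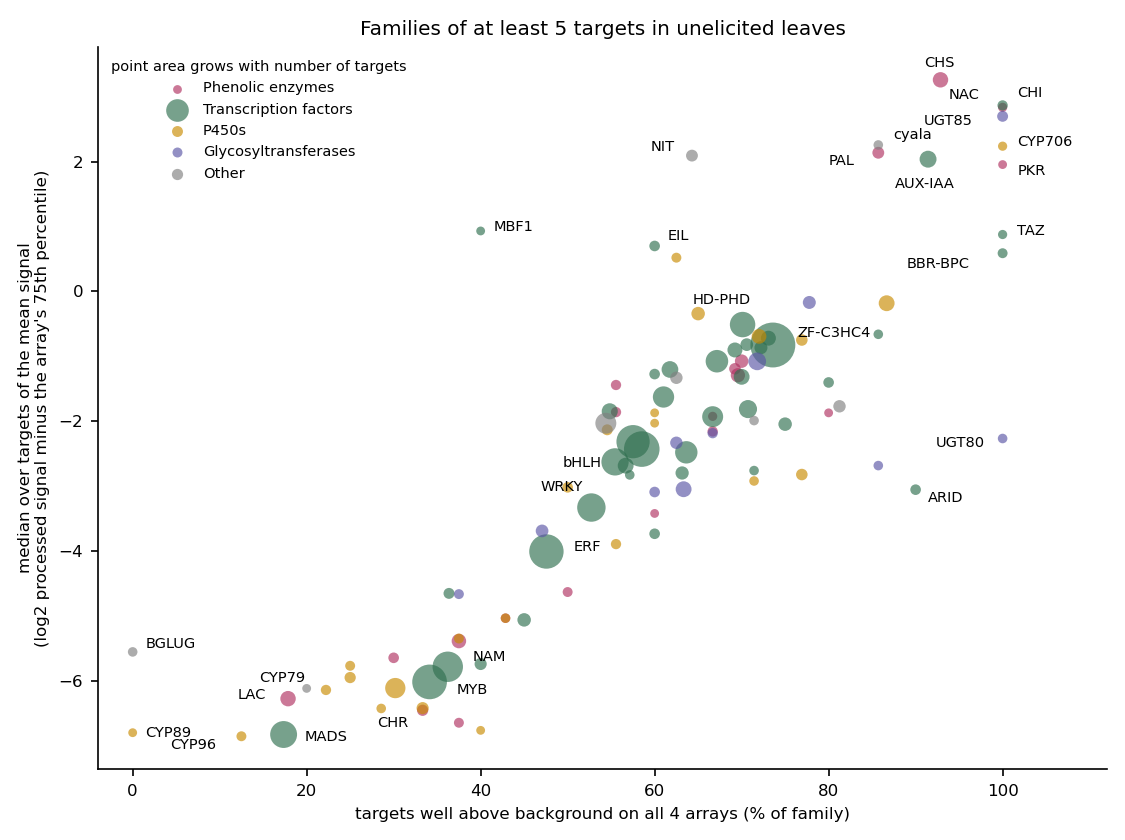
Each point is 1 of 104 families; the x axis gives the percentage of its targets well above background on all 4 arrays, the y axis the median signal in log2 units relative to the array's 75th percentile, and point area grows with the number of targets. CHS, NAC, CHI and UGT85 lie at the upper right, while MADS (17 of 98 targets) and CYP96 (1 of 8) lie at the lower left.

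All members were measured on the 4 arrays in 8 families, namely NAC, CHI, UGT85, CYP706, PKR, TAZ, BBR-BPC and UGT80. A full share did not go with a high level in every case, since the median of the UGT80 names, a family of sterol glucosyltransferases in other plants, was -2.26. At the other end were CYP96 (-6.85, 1 of 8 targets) and MADS (-6.82, 17 of 98), and no member of CYP89 or BGLUG was measured on all 4 arrays (0 of 5 and 0 of 7). The LAC names, read as laccases, enzymes of lignin polymerisation, had a median of -6.27 with 5 of 28 measured. The chalcone reductase names (CHR) were split. CHR01_LjT35G18.140.nd gave 4.02 and 3.58 on replicates 1 and 2, against 3.73 and 3.66 on replicates 3 and 4, while 6 of the 12 CHR targets were measured on no array.

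The brightest target was HID5_chr4.CM0079.310.nc, named for hydroxyisoflavanone dehydratase, which forms the isoflavone double bond. Its signals were 5.47 and 5.64 on replicates 1 and 2, against 7.67 and 6.90 on replicates 3 and 4, and it carried 86.8% of the summed signal of the 9 HID targets. LjBGLU2_ntc, a beta-glucosidase, was next in the mean but far apart between slides, at 3.66 and 3.69 on replicates 1 and 2, against 8.48 and 8.63 on replicates 3 and 4. LjERF9, an ethylene response factor, gave 5.16 and 5.31 on replicates 1 and 2, against 7.42 and 6.15 on replicates 3 and 4. CHS26_LjSGA_120506.1 gave 5.01 and 5.13 on replicates 1 and 2, against 7.88 on replicate 3, its spot on replicate 4 having been marked as an outlier by the scanner software. In each of these 4 targets every value on slide 1 was below every value on slide 2. The other probes of LjERF9 (4.12 and 4.24 on replicates 1 and 2, against 4.01 and 3.17 on replicates 3 and 4) and of CHS26_LjSGA_120506.1 (2.8 and 2.52, against 2.22 and 2.22) were not lower on slide 1.

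In 4 other bright targets the slides did not differ past the threshold of the test given later, with adjusted p between 0.17 and 0.56 in limma. Under quantile normalization 3 of them were called higher in replicates 1 and 2, LjAUX-IAA10 by 1.75, PAL01_CM1729.60.nc by 0.84 and UGT90A_chr2.CM0124.40.nc by 0.84. LjAUX-IAA10, of the family of auxin response repressors, gave 5.90 and 5.73 on replicates 1 and 2, against 6.06 and 5.92 on replicates 3 and 4, and was the brightest probe of both slide 1 arrays. Its other probe was dimmer and lower on slide 1, at 2.96 and 2.76 on replicates 1 and 2, against 4.1 and 3.84 on replicates 3 and 4. PAL01_CM1729.60.nc gave 5.27 and 5.23 on replicates 1 and 2, against 5.71 and 5.55 on replicates 3 and 4. The name cyala02_LjB12P21.10.nc, read as beta-cyanoalanine synthase, which detoxifies cyanide, gave 5.17 and 5.09 on replicates 1 and 2, against 5.19 and 4.70 on replicates 3 and 4. UGT90A_chr2.CM0124.40.nc, a glycosyltransferase, gave 5.10 and 5.17 on replicates 1 and 2, against 5.74 and 5.21 on replicates 3 and 4, and carried 93.0% of the summed signal of the 7 UGT90 targets. Over the 30 brightest targets the SD across arrays ran from 0.13 (LjAUX-IAA10) to 3.14 (IFR7_chr2.CM0249.1080.nc), and 11 targets had an SD under 0.5.

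**Figure D2:**
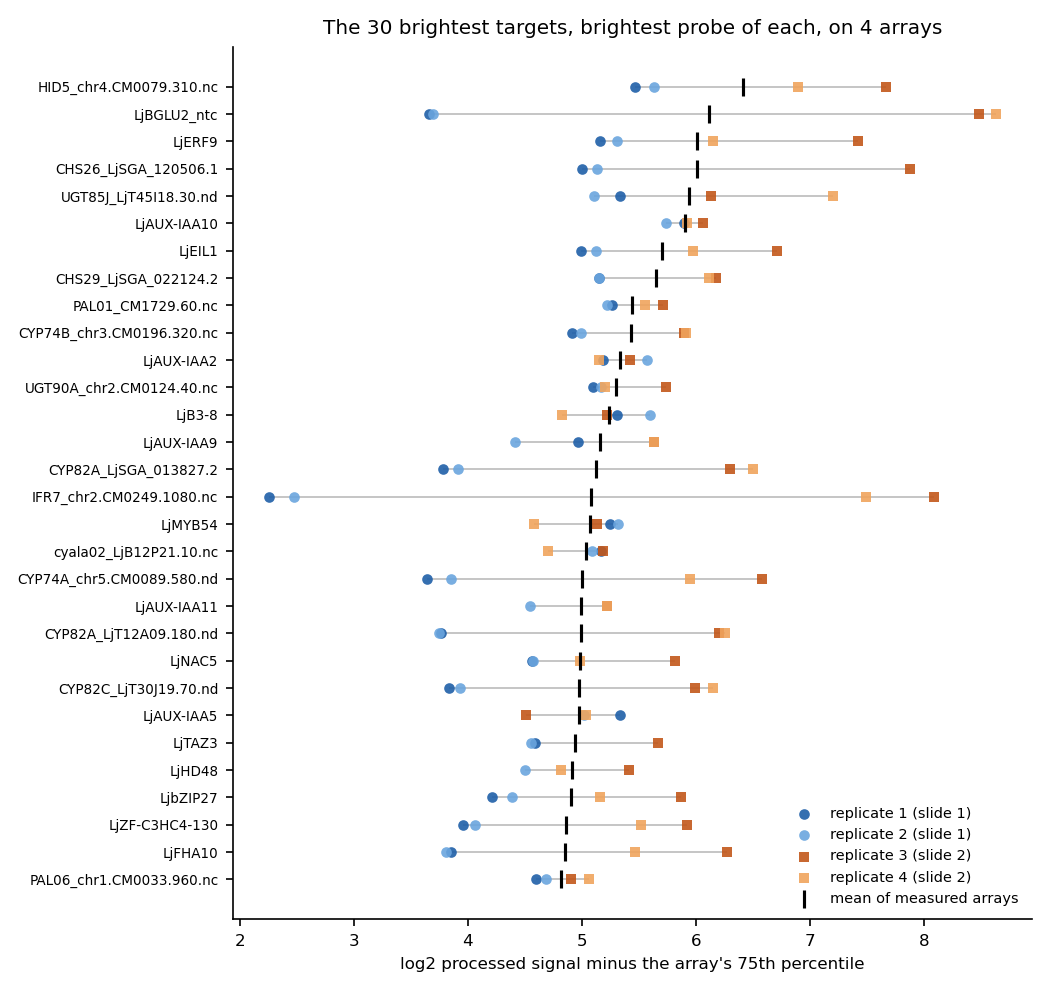
Signals of the 30 brightest targets in log2 units relative to the array's 75th percentile, 1 row per target, with blue circles for replicates 1 and 2, orange squares for replicates 3 and 4 and a black bar for the mean. LjAUX-IAA10 spans 5.73 to 6.06, while LjBGLU2_ntc and IFR7_chr2.CM0249.1080.nc have 2 separate pairs of values.

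The 30 brightest targets held 5 AUX-IAA names, 3 of CYP82, and 2 each of CHS, PAL and CYP74. The AUX-IAA family as a whole was bright, with 32 of 35 targets measured and a median of 2.04. CYP74B_chr3.CM0196.320.nc, of the hydroperoxide lyases that form leaf aldehydes, gave 4.92 and 5.0 on replicates 1 and 2, against 5.90 and 5.91 on replicates 3 and 4. CYP74A_chr5.CM0089.580.nd, of the allene oxide synthases that lead to jasmonate, gave 3.64 and 3.85 on replicates 1 and 2, against 6.58 and 5.95 on replicates 3 and 4. CYP82A_LjSGA_013827.2 gave 3.78 and 3.92 on replicates 1 and 2, against 6.30 and 6.5 on replicates 3 and 4. LjEIL1, of the ethylene signalling factors, carried 72.9% of the summed signal of the EIL names, at 4.99 and 5.13 on replicates 1 and 2, against 6.71 and 5.97 on replicates 3 and 4. For 16 of the 30 targets the other probe was over 1 log2 unit dimmer. That gap was largest for CYP74A_chr5.CM0089.580.nd (5.46) and smallest for LjEIL1 (0.12). The other probe of CYP74A_chr5.CM0089.580.nd gave -0.41 and -0.13 on replicates 1 and 2, against -0.75 and -0.54 on replicates 3 and 4. It was thus not lower on slide 1. The other probe of LjEIL1 gave 5.48 and 5.52 on replicates 1 and 2, against 5.89 and 5.42 on replicates 3 and 4, so its pairs overlapped in range.

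The transcription factor families differed widely in level, as the plot of signals within families of at least 20 targets shows. The RING-type ZF-C3HC4 names had 209 of 284 targets measured on all 4 arrays (median -0.82), and the HD-PHD names 61 of 87 (-0.51). The bHLH names had 88 of 153 (-2.31), WRKY 56 of 101 (-2.62) and ERF 78 (-4.0). The NAM names, kept apart from NAC as the design writes them, had 46 of 127 (-5.78), and the MYB names 57 of 167 (-6.01). What NAC stands for is not given by the array's names. A low family median went together with single bright members. LjMYB54 gave 5.24 and 5.32 on replicates 1 and 2, against 5.13 and 4.58 on replicates 3 and 4. LjNAM28 gave 3.60 and 3.67 on replicates 1 and 2, against 4.71 and 4.06 on replicates 3 and 4. The brightest MADS name, LjMADS24, gave 2.53 and 2.46 on replicates 1 and 2, against 2.99 and 2.83 on replicates 3 and 4, so it was above 0 on every array. The brightest YABBY name, LjZF-C2C2-YABBY2, gave 0.68 and 0.66 on replicates 1 and 2, against 0.24 and 0.66 on replicates 3 and 4. BBR-BPC, a family that binds GA-rich elements, had 8 of 8 targets measured, with LjBBR-BPC2 at 1.63 and 1.62 on replicates 1 and 2, against 2.01 and 1.80 on replicates 3 and 4.

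**Figure D3:**
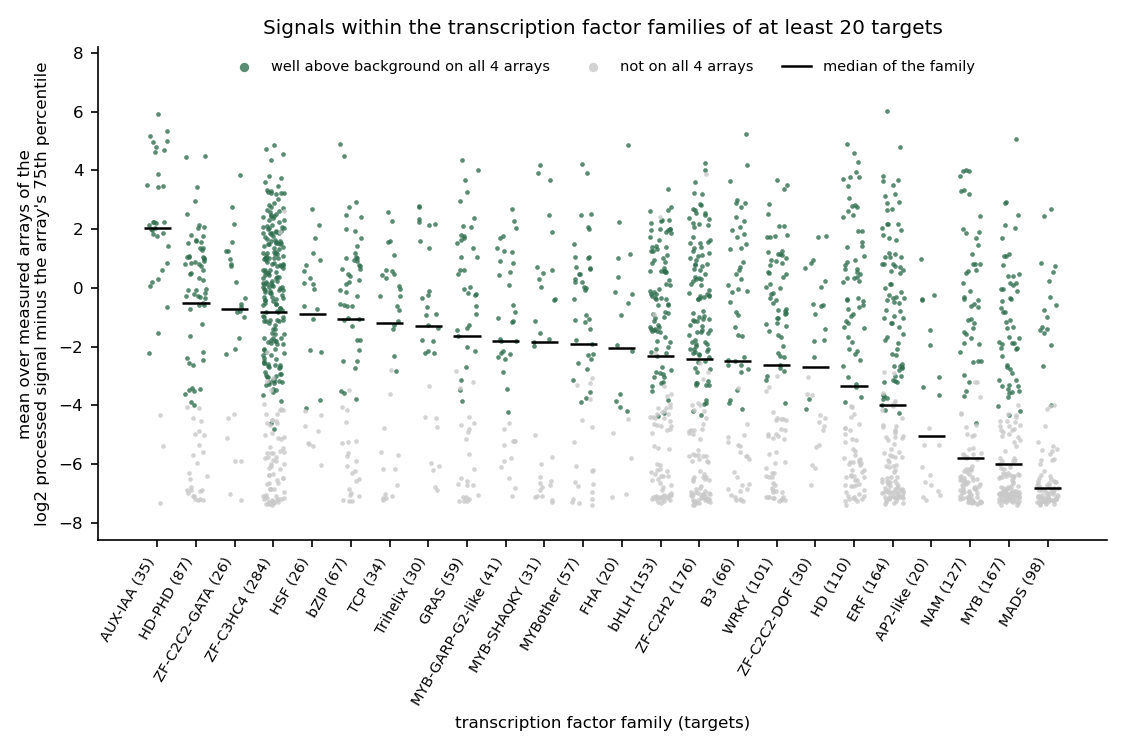
Signals of the targets in 24 transcription factor families of at least 20 targets, in log2 units relative to the array's 75th percentile, with dark points for targets well above background on all 4 arrays, grey points for the rest and a bar at each median. AUX-IAA has the highest median (2.04) and MADS the lowest (-6.82).

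The difference between the pairs was then measured, as replicates 1 and 2 minus replicates 3 and 4, with limma on the 3508 probes well above background on both arrays of at least 1 pair. At an adjusted p under 0.05, 1961 probes differed (55.9%), 1113 higher (31.7%) and 848 lower (24.2%) in replicates 1 and 2. A probe measured on 1 pair only had to be high there to be tested. Among the 2867 probes well above background on all 4 arrays 805 were higher and 768 lower, with a median difference of -0.01. The absolute difference of the called probes had a median of 1.64, and it exceeded 2 for 731 of them. Direction went with brightness. Of the 877 brightest tested probes (mean signal 1.07 to 6.42), 140 were higher and 313 lower, with a median difference of -0.36. Of the 877 dimmest (-6.19 to -2.87), 444 were higher and 156 lower, with a median of 1.11. The shares over all tested targets given below are therefore not matched for brightness. Among targets by their brightest probe, 671 of 2093 were higher (32.1%) and 529 lower (25.3%). Of the 30 brightest targets 18 were lower and 0 higher, but 8 were lower and 9 higher under quantile normalization. Lower calls among them numbered 9 without replicate 1 and 10 of 28 tested without replicate 2, and 11 with no filter on dim probes. All directions are relative to the scaling. Scaling to the E1A spike-ins, an alternative chosen after seeing the data, shifted differences upwards by 1.5 (by up to 0.26 more or less for single probes) and gave 2212 higher and 155 lower probes (93.5% of calls higher, against 56.8%). Most differences between -1.5 and 0 therefore change sign under it. The median difference over tested probes was 0.16 here and 1.66 under spike-in scaling.

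**Figure D4:**
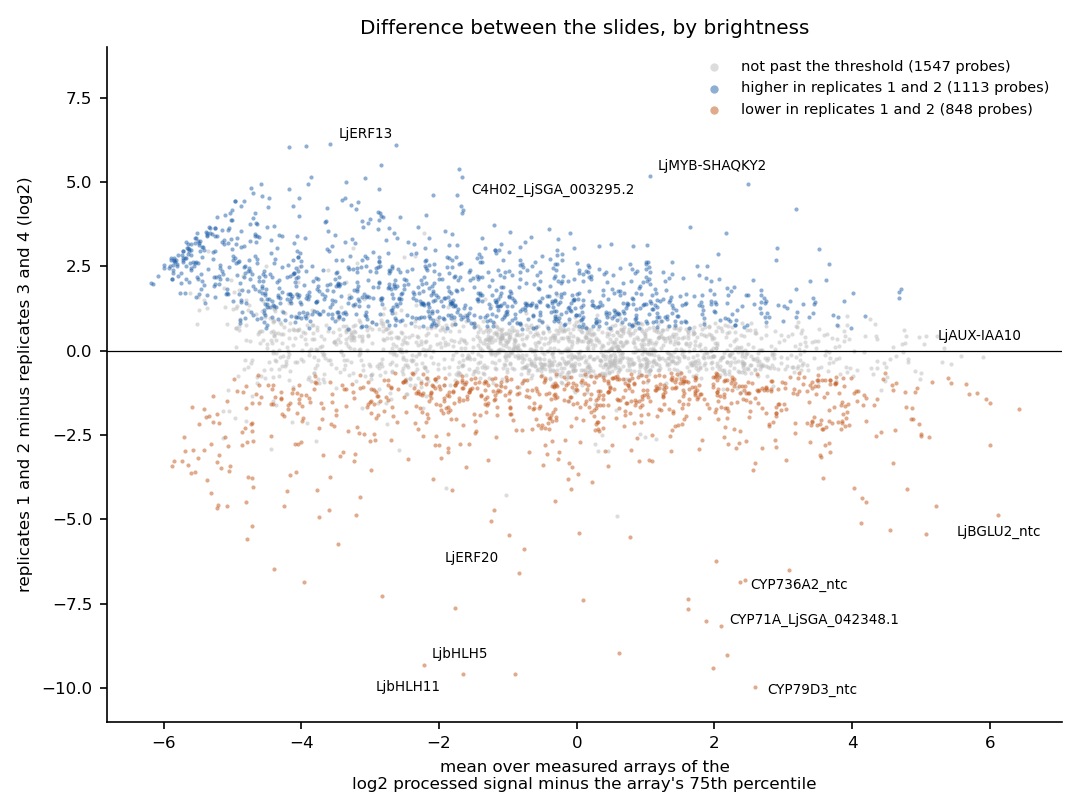
For 3508 tested probes, the difference in log2 units of replicates 1 and 2 minus replicates 3 and 4 (y axis) is plotted against the mean signal (x axis), with blue for 1113 probes higher and orange for 848 lower in replicates 1 and 2 at an adjusted p under 0.05. CYP79D3_ntc lies lowest at -9.98, and LjERF13 highest at 6.12.

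The cyanogenic glucoside list was lower in replicates 1 and 2 nearly throughout at this scaling. Of its 20 targets, 18 were tested, 16 were lower in replicates 1 and 2 and 0 were higher, with a median difference of -2.64 (0.13 over all tested targets, of which 25.3% were lower). Members measured on 1 pair only had to be high there to be tested. Among the 16 tested by a probe well above background on all 4 arrays, 14 were lower and 0 higher (median -1.97). The list took in the UGT85 family as a whole, 11 targets, of which 9 were lower. Under quantile normalization 12 targets of the list were lower and 1 higher (5 and 1 among the UGT85 names). CYP79D3_ntc, the P450 that starts synthesis in aerial tissue, gave -1.86 and -2.93 on replicates 1 and 2, against 7.46 and 7.70 on replicates 3 and 4, a difference of -9.98 ± 0.40 (SE, adjusted p = 0.000885). CYP736A2_ntc, the next enzyme, gave -0.64 and -1.48 on replicates 1 and 2, against 5.62 and 6.00 on replicates 3 and 4 (difference -6.86 ± 0.35, SE, adjusted p = 0.000885). All these values were well above background. On replicates 1 and 2 they lay near or above the medians of all targets (-2.39 and -2.35), and on replicates 3 and 4 they were among high signals. CYP79D_LjSGA_030566.2 was close to CYP79D3_ntc on slide 1 and dimmer than it on slide 2, at -1.77 and -2.90 on replicates 1 and 2, against 6.71 and 6.71 on replicates 3 and 4. Near-identical copies can share signal on an array, so these names may not be separate measurements.

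CYP79D4_ntc, a paralogue known from roots, was much dimmer, at -5.79 and -7.14 on replicates 1 and 2, against 0.61 and 1.01 on replicates 3 and 4. The faintest signals counted as well above background were -5.79 on replicate 1 and -4.84 on replicate 2. Its values on slide 1 therefore lay at or under that limit. The UGT85J names, of the family that holds cyanohydrin glucosyltransferases, differed less. UGT85J_LjT45I18.30.nd gave 5.33 and 5.10 on replicates 1 and 2, against 6.13 and 7.2 on replicates 3 and 4, and UGT85J_LjSGA_003166.2 gave 1.21 and 1.30 on replicates 1 and 2, against 4.15 and 4.13 on replicates 3 and 4. The beta-glucosidases LjBGLU2_ntc and LjBGLU4_ntc differed by -4.88 ± 0.21 and -4.11 (adjusted p = 0.000885 for each). Under spike-in scaling the median of the list stayed below 0 (-1.14), with 9 of 18 lower and 1 higher. Of the 64 beta-glucosidase names in all, 31 were measured (57.3% over all targets), and 19 of the 42 tested were lower and 4 higher (25.3% and 32.1% over all tested targets). Their median difference was -0.90, and 0.60 under spike-in scaling. Of the 28 beta-glucosidase names tested by a probe well above background on all 4 arrays, 14 were lower and 0 higher (median -0.71). Cyanide-handling names were less uniform. Of 18 tested names read as cyanoalanine synthase and nitrilase, 9 were lower and 3 higher (median difference -0.62), and 0 and 8 under spike-in scaling. Of the 14 tested by a probe well above background on all 4 arrays, 8 were lower and 1 higher (median -0.89). The name cyala05_TIGR_TC22135 gave 3.29 and 3.36 on replicates 1 and 2, against 4.97 and 4.69 on replicates 3 and 4, while cyala02_LjB12P21.10.nc did not pass the threshold (difference 0.18 ± 0.25, SE, adjusted p = 0.56 in limma).

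At the entry of the phenylpropanoid pathway the calls made were of higher signal in replicates 1 and 2. Of 20 PAL and C4H targets, 16 were measured on all 4 arrays, and 10 of 20 tested were higher and 0 lower in replicates 1 and 2 (32.1% and 25.3% over all tested targets). The median difference was 0.92, and 2.43 under spike-in scaling. Among the 16 measured on all 4 arrays 6 were higher (median 0.68), a share near that of all targets. Its brightest members did not pass. CYP73A_LjSGA_031602.1, a C4H, carried 97.3% of the summed C4H signal, at 4.79 and 4.95 on replicates 1 and 2, against 4.85 and 4.47 on replicates 3 and 4 (difference 0.21, adjusted p = 0.48). Higher were dimmer members, such as PAL09_chr5.LjT17D03.50.nd at 3.88 and 3.80 on replicates 1 and 2, against 1.98 and 2.75 on replicates 3 and 4 (adjusted p = 0.014). C4H02_LjSGA_003295.2 gave 1.03 and 0.79 on replicates 1 and 2, against -4.66 and -3.80 on replicates 3 and 4 (difference 5.14 ± 0.35, SE, adjusted p = 0.00105). Its other probe did not exceed background clearly on a single array. CYP73ALT_ntc, a name with no locus, gave near-equal values to it (difference 5.39).

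Chalcone synthesis was bright on both slides but unequal between them. Of 51 targets, 41 were measured on all 4 arrays (median signal 1.99), and 22 of the 41 tested were lower and 3 higher in replicates 1 and 2 (25.3% and 32.1% over all tested targets). Among the 877 brightest tested probes of any family, 313 were lower and 140 higher (median difference -0.36). Whether the chalcone list departed from probes of like brightness was not tested. The median difference of the list was -1.24, and 0.09 under spike-in scaling, where 3 were lower and 15 higher. Of the 38 tested by a probe well above background on all 4 arrays, 21 were lower and 2 higher (median -1.33). CHI01_ gave 2.68 and 3.19 on replicates 1 and 2, against 5.93 and 6.6 on replicates 3 and 4 (difference -3.33, adjusted p = 0.0019). CHS17_chr2.CM0018.680.nc gave 2.48 and 2.89 on replicates 1 and 2, against 4.41 and 5.61 on replicates 3 and 4. Several CHS names of one clone, CM0018, gave values close to these, so tandem copies may share signal. CHS29_LjSGA_022124.2, at 5.15 and 5.15 on replicates 1 and 2, against 6.18 and 6.11 on replicates 3 and 4, differed by -1.0 (adjusted p = 0.012). CHS05_chr1.CM0178.460.nc gave 3.48 and 3.67 on replicates 1 and 2, against 3.77 and 3.81 on replicates 3 and 4, and did not pass. The 5 PKR names, read as polyketide reductases, had 0 called in either direction in limma at this scaling. Their brightest member, PKR5_chr2.CM0191.410.nc, gave 2.18 and 1.93 on replicates 1 and 2, against 1.66 and 2.30 on replicates 3 and 4 (5 were higher under spike-in scaling).

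The later isoflavonoid steps had 30 of 51 targets measured on all 4 arrays and a median of -1.34, and 26 of the 35 tested were lower and 4 higher in replicates 1 and 2 (25.3% and 32.1% over all tested targets). The median difference was -1.47, and 0.03 under spike-in scaling, where 9 were lower and 6 higher. Of the 30 tested by a probe well above background on all 4 arrays, 23 were lower and 2 higher (median -1.42). IFR7_chr2.CM0249.1080.nc, named for isoflavone reductase, gave 2.26 and 2.47 on replicates 1 and 2, against 8.09 and 7.49 on replicates 3 and 4 (difference -5.42 ± 0.28, SE, adjusted p = 0.000885). Its neighbour by locus number, IFR6_chr2.CM0249.1070.nc, had much the same pattern at 1.79 and 2.00 on replicates 1 and 2, against 7.44 and 6.97 on replicates 3 and 4. CYP93C17_LjT24P23.50.nc, an isoflavone synthase name, gave 3.05 and 3.39 on replicates 1 and 2, against 5.37 and 5.87 on replicates 3 and 4. VR1_chr1.CM1255.320.nc, read as vestitone reductase, near the end of the route to vestitol, gave 1.64 and 1.72 on replicates 1 and 2, against 5.01 and 5.93 on replicates 3 and 4. VR2_chr1.CM0017.190.nc did not pass the threshold, at 2.89 and 2.77 on replicates 1 and 2, against 3.36 and 3.22 on replicates 3 and 4 (adjusted p = 0.12). A pair of hydroxylase names went the other way from most of the list: CYP81ELT_1_ntc gave 1.75 and 1.86 on replicates 1 and 2, against 0.60 and 0.45 on replicates 3 and 4 (adjusted p = 0.0066), with near-equal values for I2H3_chr2.CM0250.30.nc.

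**Figure D5:**
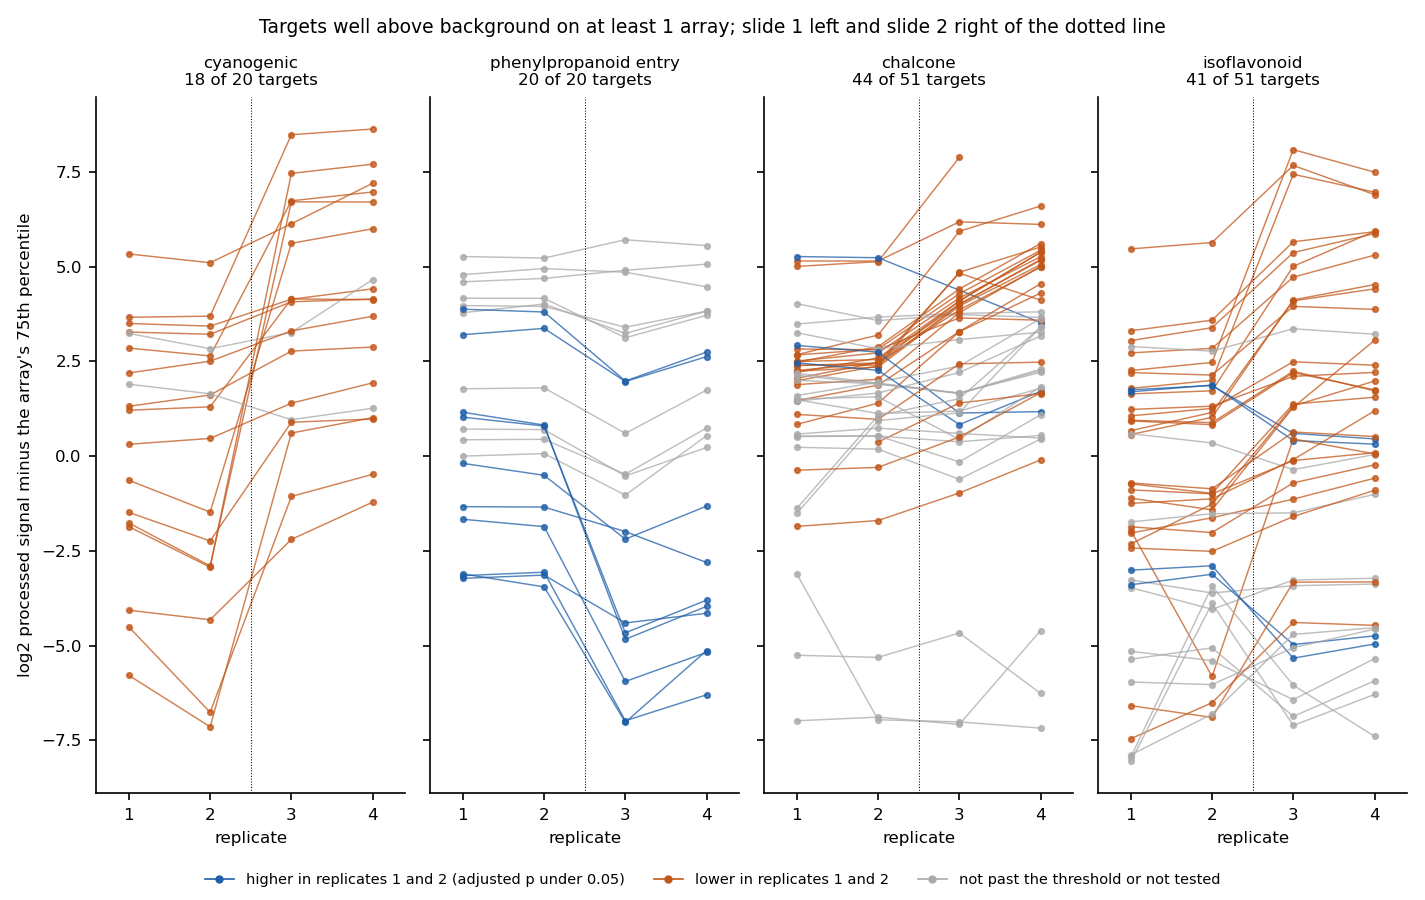
Signals on each array, in log2 units relative to the array's 75th percentile, of the targets well above background on at least 1 array in 4 lists, with slide 1 left and slide 2 right of the dotted line and lines joining the values of a target. In the cyanogenic panel 16 targets are drawn as lower in replicates 1 and 2, and in the phenylpropanoid entry panel 10 are drawn as higher.

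Hormone P450s were dim as lists, with median signals of -4.04 for brassinosteroids, -3.28 for gibberellins and -5.34 for abscisic acid, all under the -2.63 of all targets. The oxylipin list, of CYP74 and CYP94 names, was brighter (-1.66), and so was the separate carotenoid list of CYP97 names (2.77). CYP97B_chr2.CM0018.70.nc, of the carotenoid hydroxylases, gave 2.72 and 2.45 on replicates 1 and 2, against 3.65 and 3.80 on replicates 3 and 4, and all 3 CYP97 targets were measured. Single members of the hormone lists were also brighter. CYP90C_chr2.CM0249.430.nc, of brassinosteroid synthesis, gave 2.49 and 2.40 on replicates 1 and 2, against 2.48 and 2.19 on replicates 3 and 4, so the pairs overlapped in range. CYP88A_chr3.CM0292.180.nc, of gibberellin synthesis, gave 1.85 and 1.56 on replicates 1 and 2, against 3.81 and 3.94 on replicates 3 and 4 (adjusted p = 0.0020). CYP714A_LjSGA_008031.1, of a family that inactivates gibberellins in rice, gave -2.08 and -2.18 on replicates 1 and 2, against 1.63 and 2.30 on replicates 3 and 4 (difference -4.09, adjusted p = 0.0011). Of 361 P450 targets in all, 182 were measured, and 50 of the 217 tested were higher and 85 lower in replicates 1 and 2 (32.1% and 25.3% over all tested targets). Their median difference was -0.49, and 1.02 under spike-in scaling. Of the 176 P450 targets tested by a probe well above background on all 4 arrays, 29 were higher and 79 lower (median -0.64).

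Large differences were also found in transcription factors. LjbHLH11 was not well above background on replicates 1 and 2 (-6.17 and -5.21) and gave 3.68 and 4.13 on replicates 3 and 4, at least 595-fold lower in replicates 1 and 2 (adjusted p = 0.000885). Its other probe was likewise not well above background on replicates 1 and 2 (-5.99 and -6.92), against 3.28 and 3.02 on replicates 3 and 4, at least 352-fold lower. LjbHLH5 was likewise not well above background on replicates 1 and 2 (-6.97 and -6.78), against 2.58 and 2.28 on replicates 3 and 4, at least 214-fold lower (adjusted p = 0.000643). That bound is for its brighter probe only. The other LjbHLH5 probe gave -8.10 and -7.15 on replicates 1 and 2, against -0.57 and -1.75 on replicates 3 and 4, a smaller difference (-6.47). In the other direction LjERF13 gave -0.92 and -0.13 on replicates 1 and 2 and was not well above background on replicates 3 and 4 (-7.06 and -6.23), at least 21-fold higher in replicates 1 and 2 (adjusted p = 0.00105). For these bounds the dim side was raised, array by array, to the faintest signal counted as well above background where the probe lay under it. That is the lowest such limit of an array, so the bounds are approximate. They are relative to the scaling, and spike-in scaling shifted differences upwards by 1.5. The names given with bounds were tested because 1 pair was bright. Their p-values rest on dim-side signals not well above background and do not measure the size of the difference. LjMYB-SHAQKY2 was measured on all 4 arrays, at 4.98 and 4.95 on replicates 1 and 2, against -0.17 and 0.19 on replicates 3 and 4 (difference 4.95 ± 0.23, SE, adjusted p = 0.000885). Its dimmer probe gave 3.87 and 3.43 on replicates 1 and 2, against -1.75 and -1.32 on replicates 3 and 4 (difference 5.18).

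In some families more members were higher than lower in replicates 1 and 2, set against 32.1% higher and 25.3% lower over all tested targets. Dim probes of any family were more often higher. Of the 877 dimmest tested probes, 444 were higher and 156 lower (median difference 1.11). Whether the families below departed from probes of like brightness was not tested. Since members measured on 1 pair only had to be high there, counts among members measured on all 4 arrays are given too. The 5 MBF1 names, transcriptional coactivators, were called higher, of which 2 were measured on all 4 arrays, and LjMBF1-1 gave 2.56 and 2.74 on replicates 1 and 2, against 1.07 and 0.92 on replicates 3 and 4. Among bZIP names, 24 of 52 tested were higher and 4 lower, and 19 and 4 of the 44 on all 4 arrays (median 0.56). Among DOF names, 15 of 27 were higher and 1 lower, and 8 and 1 of the 17 on all 4 arrays (median 0.63). Of the 26 MADS names tested, 16 were higher and 7 lower, and 9 and 5 of the 17 on all 4 arrays (median 1.03). LjMADS25 gave 3.46 and 3.11 on replicates 1 and 2, against 1.69 and 1.58 on replicates 3 and 4. Whether the MADS names play a part in the other differences was not tested. Within families, members also differed in opposite directions. LjZF-C2C2-GATA4 gave 2.80 and 2.74 on replicates 1 and 2, against 5.09 and 4.76 on replicates 3 and 4, while LjZF-C2C2-GATA3 gave 3.57 and 3.41 on replicates 1 and 2, against 2.02 and 2.00 on replicates 3 and 4. Where both probes of a name were tested (1368 names), both were called in the same direction for 470 names and in opposite directions for 21.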

How the data were processed

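The authors deposited linear-scale intensities of array spots. The submitters' processing notes name Agilent Feature Extraction 10.7.3.1. Background had been subtracted and a spatial trend removed, per the file headers, with no normalization between arrays, and the deposited value table repeats these intensities. Control spots, outlier-marked spots (6 to 34 per array) and the elicited arrays were left out. No spot was saturated. Depth is counted in probes that cleared background, and having 4 arrays limits the precision. Groups came from sample titles.

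Each array's 75th percentile (signals of 330, 227.25, 1022.5 and 633.75 on replicates 1 to 4) was subtracted on the log2 scale. The pair difference was fitted with lmFit and eBayes of limma 3.58.1 under R 4.3.3 (residual degrees of freedom 2, prior 2.98). Its two-sided p-values were adjusted over 3508 probes (Benjamini-Hochberg, threshold 0.05), and the step was tested on simulated data. Python 3.11.15, pandas 2.3.3 and matplotlib 3.10.9 were used for counts and figures. Families are the leading text of the array's names, and 0 names or loci were met in the 40429 reference genes, so names are given as written. Loci in the names are clone positions, and no genome coordinates are given.

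Named genes are the 30 brightest targets, the 3 brightest of a family or list, the 10 largest pair differences in each direction (at most 2 per family), and members of the cyanogenic, phenylpropanoid entry, chalcone and isoflavonoid lists, and not all of these are printed. Members and lists were chosen with earlier results of these data known, and the lists of beta-cyanoalanine synthase and nitrilase names were added after the names had been read. Alternatives covered background correction (normexp, offset 50, on median spot and background signals, the mean spot signal not being among the columns), scaling, filter, variance model, probe choice and each array left out.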

Additional observations from a re-analysis of the deposited data

Results flagged for a closer look

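Of 108 items with 4 measured values, 2 had an array far from the other 3, where chance flags about 1 in 20. UGT90A_chr2.CM0124.40.nc was higher on replicate 3 (5.74) than on the others, the nearest of which was 5.21. LjZF-C2C2-YABBY2 was lower on replicate 3 (0.243), with the nearest other array at 0.66. With 2 arrays on each of 2 slides, a difference between slides cannot be seen by this criterion. Such a difference also widens the range that the gap is set against, so a single outlying array is flagged less often. The rate of 1 in 20 holds for 4 values of 1 population. The count of 2 therefore does not show that outlying arrays are absent.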

How the results depend on the processing

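No paired analysis was possible because 1 group was analysed. Counts of measured probes and targets stayed within 1.5 times under every alternative (2867 to 3437 probes, 1405 to 1830 targets). The 10 leading families shared 9 or 10 members with those of each alternative. CHS led except with probes averaged (NAC, with CHS at rank 5) and with probes chosen on replicates 1 and 2 alone (PAL). The 30 brightest targets shared 17 with replicates 1 and 2 alone, 18 with replicates 3 and 4 alone, 21 with probes averaged and 23 to 26 with an array left out. Of pair differences, spike-in scaling gave 2212 probes higher and 155 lower, and 432 probes called lower lay above 0, none of them called higher. Leaving out an array gave 662 to 1239 higher and 404 to 906 lower, the fewest without replicate 1 (662 and 404) and then replicate 2 (915 and 468). The lone array left on a slide was assumed to vary like the others. The cause was not tested. Spike-in scaling aside, only quantile normalization counted named differences as reversed. It did so for 10, of which LjAUX-IAA10 (1.75), PAL01_CM1729.60.nc (0.84), UGT90A_chr2.CM0124.40.nc (0.84) and PAL06_chr1.CM0033.960.nc (0.66) became higher calls, while HID5_chr4.CM0079.310.nc (0.24), CHS29_LjSGA_022124.2 (0.28), CYP74B_chr3.CM0196.320.nc (0.15), LjAUX-IAA9 (0.0862), LjERF9 (0.001) and LjEIL1 (0.009) did not pass.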

Other observations

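Within slide 1, CYP79D3_ntc was at -1.86 on replicate 1 and -2.93 on replicate 2, and CYP736A2_ntc at -0.64 and -1.48, so both were dimmer on replicate 2. The names CYP71A_LjSGA_042348.1 and FHYD21_LjSGA_042348.1 share a locus, which gave -1.77 and -2.21 on replicates 1 and 2, against 5.69 and 6.65 on replicates 3 and 4. All 4 values were well above background (difference -8.16, adjusted p = 0.000885 in limma). What enzyme this P450 locus encodes is not given by the array's names.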
